A study of Homo sapiens with 6 samples.

Results

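The mRNAs of 59 subunits of the respiratory chain and of ATP synthase were followed in MV4-11 cells treated with venetoclax, with cyclosporine A or with both drugs. The members were taken from a list of gene symbols that spans both genomes of the cell, with 46 subunits encoded in the nucleus and 13 in mitochondrial DNA, and they were found by Ensembl identifier among the 20263 genes of the count table. All 59 were present and all 59 passed the filter on low counts. The smallest count of any nuclear-encoded member was 242, for NDUFA2 in 1 library. Of the nuclear-encoded members, 16 belong to complex I, 4 to complex II, 7 to complex III together with cytochrome c, 11 to complex IV and 8 to complex V. Of the mitochondrially encoded members, 7 belong to complex I, 1 to complex III, 3 to complex IV and 2 to complex V.

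MV4-11 is an established acute myeloid leukemia cell line with FLT3-ITD, an internal tandem duplication of the receptor gene FLT3, and its genotype label reads WT, with no engineered change named. Cells were kept for 24 h with 100 nM venetoclax (VEN), with 2.5 µM cyclosporine A (CSA) or with VEN and CSA together, and no separate doses are given for the combination. Venetoclax is an inhibitor of BCL2 at the outer mitochondrial membrane, and cyclosporine A binds cyclophilins and is best known as a calcineurin inhibitor. Each group held 2 bulk RNA-seq libraries, called here VEN 1 and 2, CSA 1 and 2, and combination 1 and 2. The untreated control group that the study's design names was not analysed here. Nothing in the labels says that the libraries of a group came from separate cultures, so the p-values below measure the spread between these libraries, which may be technical.

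The respiratory chain moves electrons through complexes I to IV of the inner mitochondrial membrane and pumps protons, and complex V, the ATP synthase, uses the proton gradient to make ATP. Most subunits are encoded in the nucleus, translated in the cytosol and imported, whereas the core membrane subunits of complexes I, III, IV and V are encoded in mitochondrial DNA, transcribed as long polycistronic RNAs from each strand and cut apart mostly at the transfer RNAs between the genes. Complex II has no mitochondrially encoded subunit, so complexes I, III, IV and V need the products of both genomes. Acute myeloid leukemia cells are known to rely strongly on oxidative phosphorylation, which is why these genes are often examined beside BCL2 inhibition.

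Total counts ran from 26567900 in VEN 1 to 30738957 in CSA 2. The 10 myeloid markers fixed for this line were detected in each library, at a summed 2232 to 2679 nuclear CPM (counts-per-million of the counts of nuclear genes). Of 15 markers of lymphoid, erythroid, epithelial, fibroblast and endothelial cells, 7 were at 0 throughout, among them CD3D, HBB and EPCAM, and the summed 119 to 145 nuclear CPM came almost wholly from PECAM1, at 115 to 143. VEN 2 stood apart from the other 5 libraries in its mitochondrial share, so the values of the comparisons that use VEN are also given without it where they move.

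The balance of the 2 genomes set VEN 2 apart. The 13 mitochondrial mRNAs took 8.01% of all counts in VEN 1 and 41.5% in VEN 2, 7.41% and 9.71% in CSA 1 and 2, and 8.06% and 15.2% in combination 1 and 2. VEN 2 was far above the rest, combination 2 was next, and the groups overlapped because VEN 1 and combination 1 lay between the 2 CSA libraries. Counting error alone gives these shares, and the shares among the 13 mRNAs below, a 95% Wilson interval of at most 0.0601 percentage points on either side. Reads were not identified as separate molecules, so the interval covers counting error only. It takes each count as 1 independent fragment, and low counts were even more often than odd. Whether some fragments were counted more than once was not tested, and if they were, the interval would be wider.

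The nuclear-encoded members went the other way within each group. Their summed share of the counts of nuclear genes, a scale that leaves the mitochondrial counts out, was 0.684% and 0.485% in VEN 1 and 2, 0.718% and 0.642% in CSA 1 and 2, and 0.661% and 0.555% in combination 1 and 2. In all 3 groups the replicate with the larger mitochondrial share had the smaller nuclear-encoded share. The mitochondrial members thus gave 12.7 and 146 counts for each count of a nuclear-encoded member in VEN 1 and 2, 11.2 and 16.8 in CSA 1 and 2, and 13.3 and 32.4 in combination 1 and 2. As a difference of group means of the log2 ratio, the combination was -1.06 against VEN, 0.60 against CSA, and VEN was 1.66 against CSA. Without VEN 2 the first became 0.70 and the last -0.10, so their direction rested on that library. Without combination 2 the difference from CSA was -0.04 in place of 0.60. An exact permutation test of 2 libraries against 2 cannot give a two-sided p below 0.333, so no such test was used for these sums. In bulk RNA, fewer cells of a kind and less RNA per cell cannot be told apart.

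**Figure D1:**
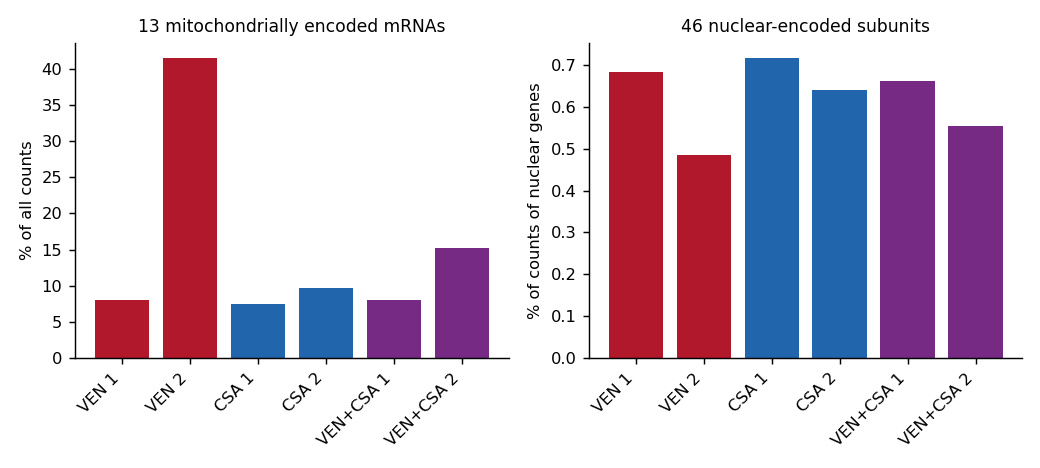
Share of counts taken by the members in each library: at left the 13 mitochondrially encoded mRNAs as a percent of all counts, at right the 46 nuclear-encoded subunits as a percent of the counts of nuclear genes, 1 bar per library. VEN 2 has the highest bar at left (41.5%) and the lowest at right (0.485%), and in each group the second replicate is higher at left and lower at right.

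Within the mitochondrial mRNAs, the complex IV genes made up less of the total in both combination libraries than in both CSA libraries. MT-CO1, MT-CO2 and MT-CO3, which encode the catalytic core of cytochrome c oxidase, together took 46.6% and 46.1% of the 13 mRNAs in CSA 1 and 2 and 38.7% and 35.4% in combination 1 and 2. In VEN 1 and 2 they took 52.0% and 27.8%, the highest and the lowest of the 6. The 7 complex I genes, which encode the proton-pumping membrane arm, lay the other way, at 43.3% and 44.1% under CSA, 49.98% and 53.5% under the combination, and 39.0% and 53.6% with VEN. These shares sum to 100% in each library, so a lower share of 1 gene forces a higher share elsewhere.

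Expressed as a ratio, the complex IV genes gave 1.08 and 1.04 counts per count of the complex I genes in CSA 1 and 2, 0.773 and 0.661 in combination 1 and 2, and 1.33 and 0.520 in VEN 1 and 2. The combination lay below CSA in both libraries, whereas the VEN libraries lay on either side of all others. VEN 1 and combination 1 had nearly the same mitochondrial share of all counts, at 8.01% and 8.06%, and ratios of 1.33 and 0.773. Among genes of the 2 complexes, the share of MT-CO1 was furthest down and that of MT-ND2 furthest up in the combination against CSA. As differences of mean log2 shares they were at -0.46 and 0.51. The count ratio of MT-CO1 to MT-ND2 was 3.97 and 1.46 in VEN 1 and 2, 2.71 and 2.59 in CSA 1 and 2, and 1.54 and 1.19 in combination 1 and 2.

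Gene by gene, the share of the 13 lay higher in both combination libraries than in both CSA libraries for 9 genes, lower for the 3 complex IV genes, and overlapped for MT-ATP6. Shares within the 13 depend on each other and have no such background over all genes. In scaled CPM, a different measure, groups did not overlap in 23.5% (higher) and 23.7% (lower) of all 12690 genes tested in that comparison. On that measure MT-ND2 and MT-ATP8 were higher without overlap, and the groups of the other mitochondrial members overlapped. MT-CO1 took 23.3% and 23.2% in CSA 1 and 2, 17.8% and 16.1% in combination 1 and 2, and 27.7% and 14.8% in VEN 1 and 2. MT-CO3 took 13.2% in both CSA libraries, 11.3% and 10.6% under the combination, and 14.7% and 7.89% with VEN. MT-CO2, the subunit that receives electrons from cytochrome c, differed less, at 10.1% and 9.63% under CSA, 9.49% and 8.62% under the combination, and 9.64% and 5.19% with VEN.

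MT-ND2, a membrane-arm subunit of complex I, differed most upward in percentage points, at 8.60% and 8.99% in CSA 1 and 2, 11.6% and 13.6% in combination 1 and 2, and 6.97% and 10.1% in VEN 1 and 2. As a difference of mean log2 shares between the combination and CSA, MT-ATP8 was further up, at 0.63 against 0.51 for MT-ND2. Per base of transcript MT-ND2 was the 6th and 5th of the 13 under CSA, the 4th and 2nd under the combination, and the 7th in both VEN libraries. MT-CO3 was the 1st per base in every library except VEN 2, where it was the 6th. MT-CYB, the only mitochondrially encoded subunit of complex III, took 7.03% and 6.95% under CSA, 8.01% and 7.31% under the combination, and 6.19% and 4.85% with VEN. Against VEN, the combination's shares lay higher in both libraries for MT-ND2, MT-ND3 and MT-CYB and overlapped for the other 10. In scaled CPM the groups overlapped for all 13, and they stood apart in 19.2% (higher) and 18.9% (lower) of all genes.

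MT-ND6 is the 1 protein-coding gene transcribed from the other strand of the mitochondrial genome. Its share was 0.945% and 2.13% in VEN 1 and 2, 1.38% and 1.35% in CSA 1 and 2, and 1.59% and 1.79% in combination 1 and 2. The combination was again above CSA in both libraries, and VEN 2 was above all of them. The sources used here do not give the strand setting of the counting, so reads of MT-ND6 and of transcripts opposite to it cannot be told apart.

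**Figure D2:**
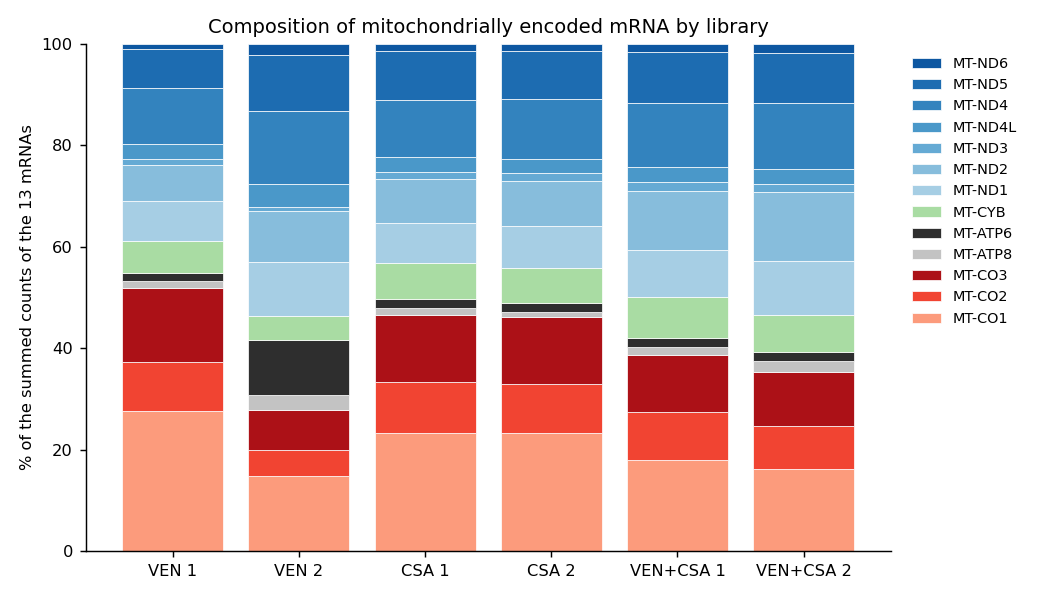
Composition of the 13 mitochondrially encoded mRNAs, as percent of their summed counts, with 1 stacked bar per library: complex IV in reds, ATP synthase in greys, MT-CYB in green and complex I in blues. The red block is 46.6% and 46.1% under CSA and 38.7% and 35.4% under the combination, and the dark MT-ATP6 band is 10.7% in VEN 2 and at most 1.83% elsewhere.

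VEN 2 differed from the others in composition as well as in amount. Its share of the 13 lay above the range of the other 5 libraries for 6 genes (MT-ND4, MT-ND4L, MT-ND5, MT-ND6, MT-ATP6 and MT-ATP8), below it for 5 (MT-ND3, MT-CYB, MT-CO1, MT-CO2 and MT-CO3) and within it for MT-ND1 and MT-ND2. MT-ATP6, which encodes the proton channel subunit of ATP synthase, stood out most. It took 1.69% of the 13 in VEN 1 and 10.7% in VEN 2, and 1.83%, 1.73%, 1.71% and 1.73% in CSA 1, CSA 2, combination 1 and combination 2. In unscaled CPM, VEN 2 was 33.0 times VEN 1 for MT-ATP6, 12.9 times for MT-ATP8 and 11.7 times for MT-ND6. The other complex I genes ran from 6.75 times for MT-ND4 to 7.93 times for MT-ND4L, except MT-ND3 at 2.92 times. MT-CYB was at 4.06 times, and MT-CO1, MT-CO2 and MT-CO3 were at 2.77, 2.79 and 2.79 times. Leaving MT-ATP6 out, the mitochondrial share of VEN 2 was still 37.1%, against 7.28% to 15.0% in the other 5 libraries.

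MT-ATP8 and MT-ATP6 are carried on 1 bicistronic mRNA, and their coding sequences share bases, so the split of reads between them depends on the counting. They overlap by 46 bases on the mitochondrial chromosome, chrM:8527-8572 of GRCh38, plus strand. The overlap is printed because these genes had the largest folds of VEN 2 over VEN 1 among the mitochondrial mRNAs. In the line below, capitals mark the start codon of MT-ATP6 at the left end and the stop codon of MT-ATP8 at the right end.
MT-ATP8 and MT-ATP6 overlap: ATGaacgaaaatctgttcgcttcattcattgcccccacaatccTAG
MT-ATP6 also shares 1 base with MT-CO3, and MT-ND4L shares 7 bases with MT-ND4. Counts of MT-ATP6 per count of MT-CO3, the next gene on the same precursor, were 0.115 and 1.36 in VEN 1 and 2, 0.138 and 0.131 in CSA 1 and 2, and 0.151 and 0.163 in combination 1 and 2. Counts of MT-ATP6 per count of MT-ATP8 were 1.40 and 3.57 with VEN, 1.48 and 1.48 under CSA, and 1.04 and 0.820 under the combination. MT-ATP6 was thus high in VEN 2 against both of its neighbours. Mitochondrial genes have near-identical copies in nuclear DNA, and the sources used here do not say how reads shared with such copies were assigned.

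No member passed the test in any of the 3 comparisons. With edgeR's quasi-likelihood test over 12690 genes and Benjamini-Hochberg adjustment, 0 of 59 members had an adjusted p under 0.05, and so did 0 of all genes, a background of 0% in each comparison. At an unadjusted p under 0.05 the combination against VEN had 1 member lower (5.48% of all genes were lower and 5.33% higher), the combination against CSA had 0 (1.69% lower, 1.95% higher) and VEN against CSA had 2 higher (2.34% higher, 2.46% lower). DESeq2 called 1 member, 0 and 1 member in these comparisons, MT-ATP6 both times, where it called 2.55%, 0.513% and 0.496% of the genes to which it gave an adjusted p. limma-voom called 0 members in each, and 0%, 0.00788% and 0% of all genes. The 3 comparisons share libraries in pairs, so their values are set side by side and not counted as separate support.

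The mitochondrial members had wide standard errors in all 3 comparisons of the fit of 6 libraries, with medians of 1.08, 1.06 and 1.11 for the combination against VEN, the combination against CSA and VEN against CSA. Without VEN 2 they were 0.48, 0.38 and 0.47. In scaled CPM (counts-per-million after library sizes were adjusted by the trimmed-mean factor), MT-ATP6 was at 1218 and 67948 in VEN 1 and 2, 1218 and 1551 in CSA 1 and 2, and 1233 and 2592 in combination 1 and 2. A single library was high and the groups overlapped. Its log2 fold change for the combination against VEN was -4.18 ± 1.65 (SE; unadjusted p = 0.0465, adjusted p = 0.453 in edgeR) and for VEN against CSA 4.64 ± 1.69 (unadjusted p = 0.0349, adjusted p = 0.633 in edgeR). DESeq2 gave -4.17 with an adjusted p of 0.02998 and 4.64 with an adjusted p of 0.03172. Without VEN 2 the edgeR values were 0.65 ± 0.49 and -0.19 ± 0.48, with adjusted p of 0.566 and 0.999. MT-ATP8, an accessory subunit of the same complex, was the other member at an unadjusted p under 0.05 in VEN against CSA, at 3.41 ± 1.35 (adjusted p = 0.633 in edgeR), and its value was -0.11 ± 0.62 without VEN 2.

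All 13 mitochondrial members were lower in the combination than in VEN, with a median log2 fold change of -1.66 against -0.01 over all genes tested, and without VEN 2 the same median was 0.91, with 12 of 13 higher. MT-CO1 was the exception, at -0.10 ± 0.41 without VEN 2. In VEN against CSA the median was 2.33 with 13 of 13 higher, and -0.17 with 2 of 13 higher without VEN 2. The direction of both comparisons was therefore that of VEN 2.

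The combination against CSA does not use VEN levels, and its mitochondrial values were nearly the same with and without VEN 2. All 13 members were higher, with a median of 0.62 against 0.00 over all genes tested, and the range ran from 0.03 ± 0.75 for MT-CO1 to 1.21 ± 1.25 for MT-ATP8. The complex I genes had a median of 0.69, the complex IV genes 0.22 and MT-CYB 0.62. In scaled CPM, MT-ND2 was at 5728 and 8050 under CSA and 8354 and 20325 under the combination, and MT-ATP8 was at 824 and 1050 under CSA and 1187 and 3163 under the combination. Those were the 2 of 13 mitochondrial members whose groups did not overlap, fewer in proportion than the 23.5% of all genes that were higher without overlap. The median over the 13 was 1.00 without combination 1 and 0.02 without combination 2, so the size of the difference rested on combination 2. The lower complex IV share was present in both combination libraries. That share differed more between VEN 1 and 2, at 52.0% and 27.8%, than between the CSA and combination libraries.

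**Figure D3:**
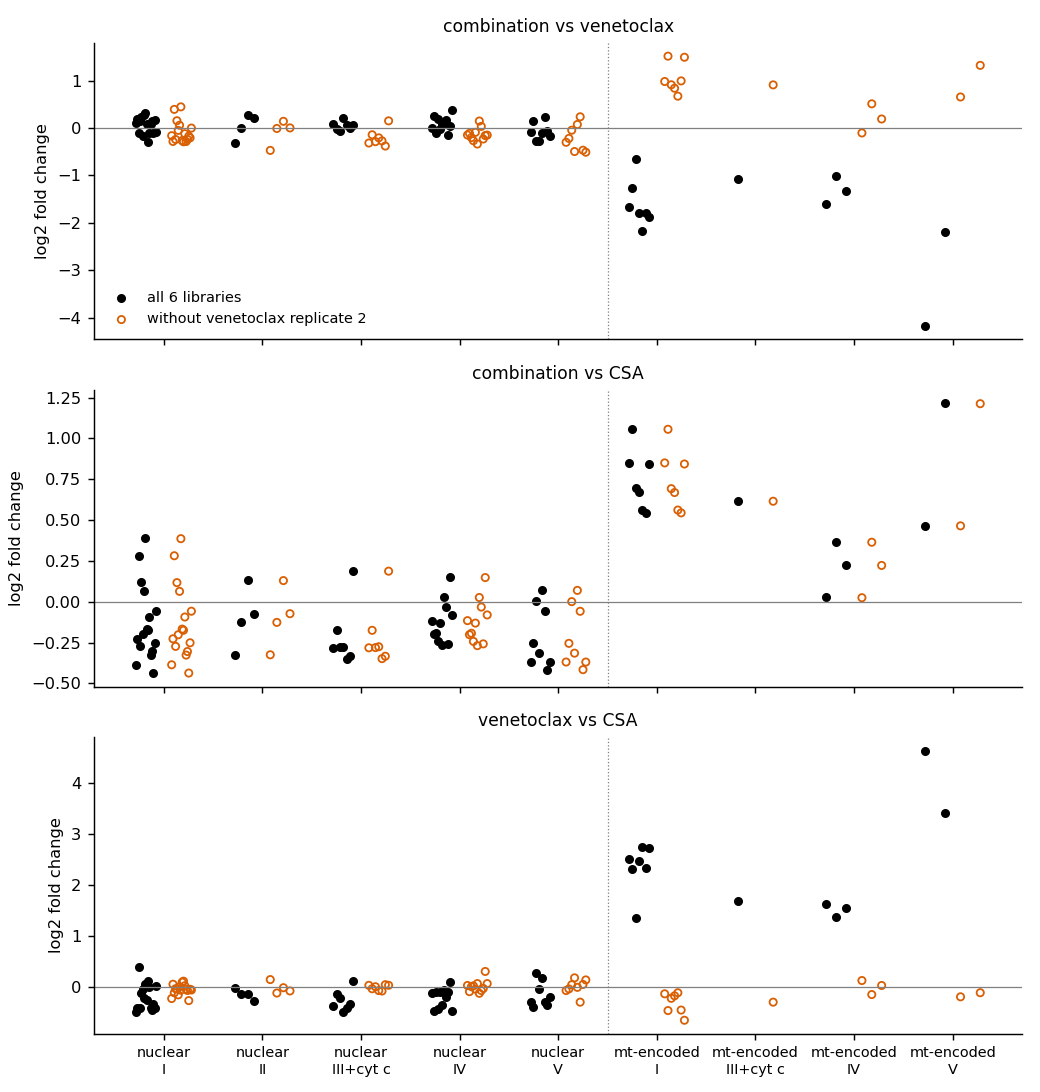
Fitted log2 fold change of each member in the 3 comparisons, grouped by genome and complex, with 1 point per gene: filled for the fit of 6 libraries and open for the fit without VEN 2. The vertical scales differ between panels. Most mitochondrially encoded points cross 0 in the top and bottom panels when VEN 2 is left out (median -1.66 to 0.91 and 2.33 to -0.17). The exceptions are MT-CO1 in both panels and MT-CO3 in the bottom panel, which come near 0. In the middle panel the points stay in place (0.62).

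Nuclear-encoded members differed by little in every comparison. Across the 46, the log2 fold change of the combination against CSA ran from -0.44 to 0.39, with SEs between 0.14 and 0.45. The median was -0.20 against 0.00 over all genes tested, with 36 of 46 lower (78.3%, against 50.3% of all genes). That median was -0.37 without combination 1 and -0.07 without combination 2. It was -0.11 without CSA 1 and -0.29 without CSA 2, so its size depended on single libraries, most of all on combination 2. In scaled CPM, 19 members were lower in both combination libraries than in both CSA libraries (41.3%, against 23.7% of all genes) and 7 were higher (15.2%, against 23.5%). None was called, and the smallest adjusted p was 0.9999 with edgeR. Leaving out VEN 2 narrowed the shared estimate of the spread, and again 0 of 59 members were called (0.185% of all genes), with a smallest adjusted p of 0.337. This comparison does not use VEN levels, so its 36 of 46 lower in that fit (50.4% of all genes) is no separate support.

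By complex, the nuclear-encoded medians of the combination against CSA were -0.19 for complex I (12 of 16 lower), -0.10 for complex II (3 of 4), -0.28 for complex III with cytochrome c (6 of 7), -0.13 for complex IV (9 of 11) and -0.28 for complex V (6 of 8). Differences between complexes were not tested. SDHA, the flavoprotein that oxidizes succinate in complex II, was at 271 and 230 scaled CPM under CSA, 279 and 218 with VEN, and 207 and 193 under the combination. Both combination libraries were the lowest of the 6, and the log2 fold change was -0.32 ± 0.19 against CSA and -0.31 ± 0.19 against VEN. NDUFS8, an iron-sulfur subunit of complex I, was the lowest nuclear-encoded member in this comparison, at 37.6 and 44.7 under CSA, 33.0 and 27.8 under the combination, and 34.4 and 30.7 with VEN (-0.44 ± 0.19 against CSA).

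At the other end, NDUFB5, an accessory subunit of the membrane arm of complex I, was at 28.9 and 28.6 under CSA, 27.7 and 32.6 with VEN, and 33.3 and 42.1 under the combination (0.39 ± 0.19 against CSA and 0.32 ± 0.19 against VEN). Both combination libraries were the highest of the 6. CYCS, which encodes cytochrome c, the electron carrier that is released from mitochondria in apoptosis, was at 235 and 219 under CSA, 234 and 259 with VEN, and 271 and 247 under the combination. Its groups did not overlap between CSA and the combination (0.19 ± 0.15) but did between VEN and the combination (0.07 ± 0.15). In complex V, ATP5MC1, a gene for the proton-carrying c-ring, was the lowest, at 47.2 and 37.0 under CSA, 43.8 and 22.4 with VEN, and 35.5 and 27.6 under the combination (-0.41 ± 0.35 against CSA). ATP5PB of the peripheral stalk was the highest of that complex, at 220 and 217 under CSA, 219 and 274 with VEN, and 229 and 230 under the combination (0.07 ± 0.16 against CSA).

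Of the remaining extremes of the combination against CSA, UQCRQ, a small subunit of complex III, stood at -0.35 ± 0.32 and COX6B1, a subunit of complex IV on the intermembrane side, at -0.27 ± 0.42. COX7C of complex IV stood at 0.15 ± 0.26 and SDHC, a membrane anchor of complex II, at 0.13 ± 0.17. Each of these 4 values was close to its standard error or smaller.

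Against VEN, the sense of the nuclear-encoded members depended on VEN 2. Over 6 libraries the combination had a median of 0.07 with 20 of 46 lower (43.5%, against 50.9% of all genes), and without VEN 2 the median was -0.17 with 35 of 46 lower (76.1%, against 49.1%). Groups did not overlap for 5 members that were higher and 4 that were lower, or 10.9% and 8.70% of the 46 against 19.2% and 18.9% of all genes. Only complex V had a median below 0 over 6 libraries (-0.09). Complexes I, II, III with cytochrome c, and IV stood at 0.09, 0.11, 0.06 and 0.08, and their medians were -0.17, -0.004, -0.27 and -0.15 without VEN 2. COX8A, a small structural subunit of complex IV, was the highest at 0.39 ± 0.46 and became -0.15 ± 0.20. Its scaled CPM were 101 and 37.5 in VEN 1 and 2, 108 and 84.1 in CSA 1 and 2, and 99.4 and 82.1 in combination 1 and 2. VEN 2 alone was low.

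The other extremes against VEN were also not called. SDHC (0.27 ± 0.17), UQCRH, the hinge protein of complex III (0.21 ± 0.34), and ATP5PO, the stalk subunit that confers oligomycin sensitivity (0.23 ± 0.28), were the highest of their complexes. NDUFB10 of complex I (-0.29 ± 0.17), the Rieske iron-sulfur protein UQCRFS1 (-0.07 ± 0.22), COX7B (-0.16 ± 0.18) and ATP5F1D of the ATP synthase central stalk (-0.28 ± 0.28) were the lowest. NDUFB10 was at 60.0 and 59.6 with VEN, 54.3 and 55.9 under CSA, and 44.2 and 53.5 under the combination, lower in both combination libraries than in all 4 others. Without VEN 2 UQCRH became -0.21 ± 0.17, UQCRFS1 -0.29 ± 0.16, SDHC 0.14 ± 0.12 and ATP5F1D -0.50 ± 0.28, while ATP5PO (0.24 ± 0.35) and NDUFB10 (-0.29 ± 0.15) moved little.

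Without VEN 2, in which the lone VEN 1 was taken to vary like the other groups, 0 of 59 members were called for the combination against VEN (0.379% of all genes were). At an unadjusted p under 0.05, 1 member was higher (8.28% of all genes) and 2 were lower (7.17%). NDUFA6, an accessory subunit of complex I, was the higher one, at 0.39 ± 0.12 (adjusted p = 0.229 in edgeR), and SDHA was lower, at -0.47 ± 0.14 (adjusted p = 0.219 in edgeR). CYC1, the cytochrome c1 of complex III, was also lower, at -0.38 ± 0.11 (adjusted p = 0.216 in edgeR). It falls outside the naming rule and is named because it completes this count of 3. The same 3 genes were at an unadjusted p under 0.05 against CSA in that fit, on the same side, together with NDUFB5 (higher) and NDUFS8 (lower), where the background was 6.25% higher and 5.71% lower. Both comparisons share the combination libraries. NDUFA6 was at 45.2 and 82.2 scaled CPM in VEN 1 and 2, 50.04 and 47.3 in CSA 1 and 2, and 59.3 and 59.2 in combination 1 and 2, so VEN 2 lay above the combination and VEN 1 below it.

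In VEN against CSA, the values of both genomes depended on VEN 2. The nuclear-encoded median was -0.20 with 37 of 46 lower (80.4%, against 50.2% of all genes), and -0.03 with 26 of 46 lower (56.5%, against 51.5%) without VEN 2. Groups did not overlap for 2 members that were higher and 8 that were lower (4.35% and 17.4%, against 20.8% and 19.9% of all genes). By complex the medians were -0.23, -0.13, -0.32, -0.11 and -0.25 for I, II, III with cytochrome c, IV and V, and -0.04, -0.04, 0.01, 0.01 and 0.02 without VEN 2. NDUFA6 (0.39 ± 0.29) and ATP5F1C, the rotating gamma subunit of ATP synthase (0.28 ± 0.19), were the highest, and NDUFA1 of complex I (-0.49 ± 0.32), UQCRH (-0.48 ± 0.35), COX8A (-0.47 ± 0.46), ATP5F1B, the catalytic beta subunit (-0.39 ± 0.33), and SDHD, a membrane anchor of complex II (-0.28 ± 0.23), were the lowest of their complexes. Without VEN 2 these 5 low values became -0.22, -0.07, 0.07, -0.03 and -0.08, and NDUFA6 and ATP5F1C became -0.11 and 0.05. At an unadjusted p under 0.05 there was then no member, against 1.58% of all genes higher and 3.21% lower.

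If VEN 1 was left out in place of VEN 2, the venetoclax group was VEN 2 alone, and members were called in both comparisons that use it. For the combination against VEN, 21 of 59 members were called (26.4% of all genes), of which 12 were mitochondrial and lower, 7 nuclear-encoded and higher, and 2 nuclear-encoded and lower. For VEN against CSA, 26 of 59 were called (33.8% of all genes), with all 13 mitochondrial members higher, 11 nuclear-encoded members lower and 2 higher. No member was called in the combination against CSA in that fit (0.185% of all genes).

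The low nuclear-encoded values of VEN 2 had smaller counterparts in the other groups. Between replicates of 1 group, in nuclear CPM, 39 of 46 nuclear-encoded members were lower in replicate 2 for VEN, 38 for CSA and 39 for the combination. The median log2 difference of replicate 2 from replicate 1 was -0.56, -0.14 and -0.27, against -0.08, 0.01 and -0.02 over 11642 nuclear genes. In all 3 groups at once, 31 of 46 members were lower in replicate 2 (67.4%), against 3207 of 11642 nuclear genes (27.5%). COX8A gave the largest drop of the VEN pair, at 122 and 42.1 nuclear CPM, with 129 and 101 for CSA and 121 and 98.5 for the combination. NDUFV2, a subunit of the NADH-oxidizing module of complex I, was the only 1 of the 46 that was not lower in replicate 2 of any group.

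Gene length and base composition moved with this difference in the VEN pair and much less in the other pairs. Over all nuclear genes, the median of VEN 2 against VEN 1 was -0.35, -0.13, -0.03 and 0.11 in 4 equal bins from the shortest summed exons to the longest, and 0.39, 0.06, -0.32 and -0.67 in 4 equal bins from the lowest GC content to the highest. In the same bins the CSA pair ran from -0.04 to 0.03 by length and from 0.08 to -0.07 by GC content, and the combination pair from -0.07 to -0.01 and from 0.06 to -0.10. The 46 members had a median summed exon length of 2774.5 bases against 5077 and a median GC content of 47.9% against 48.5%. The part of length and GC content in the members' difference was not tested.

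**Figure D4:**
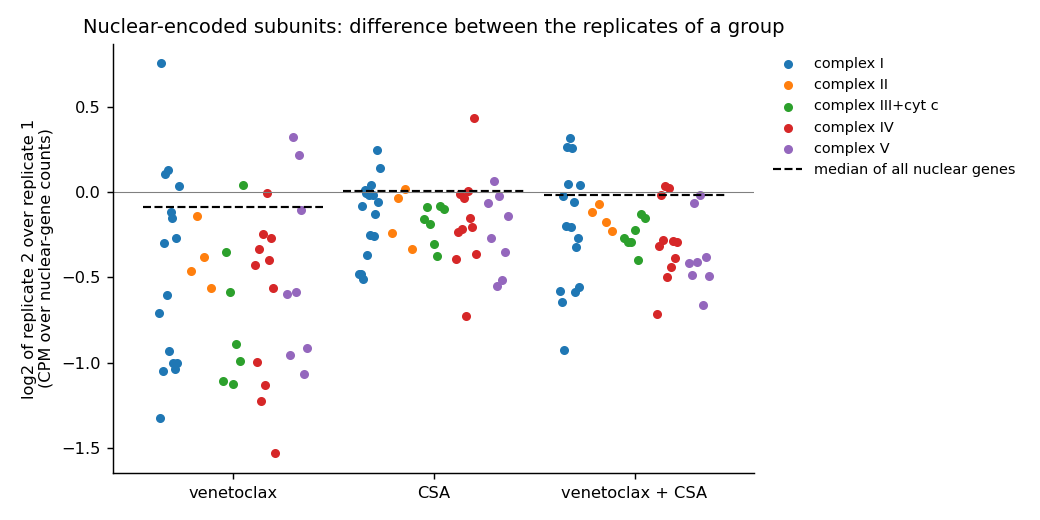
Difference between the 2 replicates of each group for the 46 nuclear-encoded members, as log2 of replicate 2 over replicate 1 in nuclear CPM, coloured by complex, with a dashed line at the median of all nuclear genes. Most points lie below the dashed line in each group (member medians -0.56, -0.14 and -0.27), with COX8A the lowest point for VEN (-1.53).

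**Figure D5:**
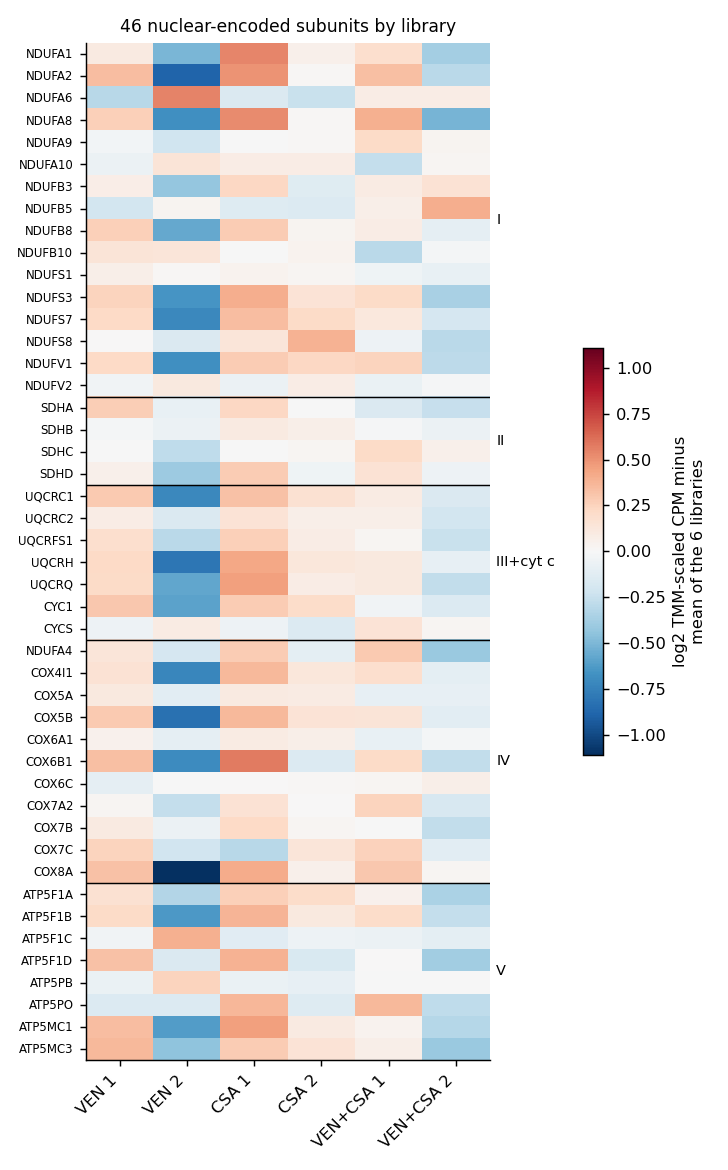
Scaled CPM of the 46 nuclear-encoded members by library, as log2 difference from each gene's mean over the 6 libraries, with genes in rows ordered by complex. VEN 2 holds the deepest blue cells, such as COX8A and NDUFA2, and also red ones, such as NDUFA6 and ATP5F1C, while the CSA and combination columns are paler.

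Some promoters of the nuclear-encoded members hold motifs of NRF1 and of ETS factors such as GABP, which are textbook regulators of respiratory genes. RefSeq promoter sequences (GRCh38.p14, 250 bases before to 50 bases after the annotated start) were matched for 38 of the 46 members, and those of ATP5F1B, ATP5F1D, ATP5MC3, COX6C, CYC1, NDUFA4, NDUFB5 and SDHC were not matched. Exact matches on both strands were sought to GCATGCGC, a core motif of NRF1, and to CCGGAAGT, an ETS site, which do not overlap each other, and to the CCAAT box (CCAAT) and a TATA box (TATAAA). The NRF1 motif was present in 9 of 38 member promoters (23.7%), against 3.05% of all 35116 promoters and 5.96% of the 9425 promoters of measured genes. The ETS site was present in 6 of 38 (15.8%), against 4.14% and 9.496%, and either was present in 13 of 38 (34.2%), against 6.91% and 14.7%. The CCAAT box was present in 28.9% of the 38, against 34.6% and 36.7%, and the TATA box in 10.5%, against 11.5% and 5.49%. A match is a description of letters and not of binding.

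The 3 member promoters with more than 1 match in the 200 bases before the start are printed because they show both motifs and how NRF1 matches on opposite strands can overlap. They are SDHD at chr11:112086673-112086872, COX5B at chr2:97645862-97646061 and ATP5F1C at chr10:7787977-7788176, each on the plus strand of GRCh38.p14, 5′ to 3′, with matches in capitals.
SDHD: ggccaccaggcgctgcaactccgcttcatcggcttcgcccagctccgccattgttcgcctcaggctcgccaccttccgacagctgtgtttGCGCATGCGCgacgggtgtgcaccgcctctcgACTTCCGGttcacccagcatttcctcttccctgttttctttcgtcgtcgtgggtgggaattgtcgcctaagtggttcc
COX5B: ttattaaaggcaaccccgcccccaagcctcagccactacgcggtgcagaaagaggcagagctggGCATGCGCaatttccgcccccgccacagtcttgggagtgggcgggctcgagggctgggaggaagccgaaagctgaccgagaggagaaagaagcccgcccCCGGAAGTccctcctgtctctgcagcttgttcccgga
ATP5F1C: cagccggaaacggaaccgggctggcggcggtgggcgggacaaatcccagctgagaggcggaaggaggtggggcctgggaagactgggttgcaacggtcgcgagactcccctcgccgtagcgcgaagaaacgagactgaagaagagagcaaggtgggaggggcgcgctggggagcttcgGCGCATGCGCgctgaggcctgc
SDHD and ATP5F1C each hold the NRF1 motif on both strands, overlapping, and SDHD and COX5B each hold an ETS site as well. Their scaled CPM went different ways in VEN 2: COX5B, a subunit of the complex IV matrix side, was at 90.5 and 41.5 in VEN 1 and 2, SDHD at 71.5 and 52.0, and ATP5F1C at 184 and 247. With CSA they were at 94.95 and 82.1, 83.6 and 66.5, and 173 and 181, and under the combination at 81.7 and 68.0, 76.6 and 66.2, and 180 and 174. The 13 members with either motif had median log2 fold changes of 0.07, -0.12 and -0.28 in the combination against VEN, the combination against CSA and VEN against CSA, and the 25 with neither had 0.05, -0.20 and -0.21. Without VEN 2 the medians were -0.12, -0.13 and -0.04 with a motif and -0.20, -0.20 and -0.03 with neither.

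Other genes of the pathway gave a similar picture, with none called in any of the 3 comparisons (background 0% in each). Of 34 further nuclear-encoded subunits fixed as a list, all were tested. In the combination 26 were lower than in CSA (median -0.12) and 14 lower than in VEN (median 0.03), and 26 were lower in VEN than in CSA (median -0.20). Of all genes, 50.3%, 50.9% and 50.2% were lower in that order. Without VEN 2, 24 of the 34 were lower in the combination than in VEN (median -0.16, with 49.1% of all genes lower). In VEN against CSA 19 were then lower (median -0.01, with 51.5% of all genes lower), so the first of these changed sense. ATP5ME of ATP synthase was the lowest against CSA, at 44.1 and 33.4 scaled CPM under CSA and 30.1 and 21.7 under the combination (-0.58 ± 0.32), and NDUFA5 of complex I the highest, at 35.1 and 31.1 under CSA and 45.6 and 41.9 under the combination (0.40 ± 0.27). Neither pair of groups overlapped.

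The 28 genes of mitochondrial DNA maintenance, transcription and RNA processing had medians of -0.09 against VEN, -0.01 against CSA and 0.11 for VEN against CSA. In that order 17, 14 and 13 were lower (50.9%, 50.3% and 50.2% of all genes). Without VEN 2 the first and last medians were 0.02 and 0.06, with 13 and 11 of the 28 lower (49.1% and 51.5% of all genes). PRORP, the nuclease that cuts mitochondrial precursor RNA at the start of transfer RNAs, was the lowest of them against VEN (-0.73 ± 0.41) and the highest for VEN against CSA (0.77 ± 0.41). It was at 31.3 and 77.4 in VEN 1 and 2, 32.7 and 31.2 in CSA 1 and 2, and 35.3 and 30.4 in combination 1 and 2, so VEN 2 alone was high, and without it the 2 values were 0.07 ± 0.15 and -0.03 ± 0.15. TRMT10C, which works with it, was at 58.2 and 102 in VEN 1 and 2, 49.8 and 57.9 in CSA 1 and 2, and 57.5 and 68.8 in combination 1 and 2 (0.23 ± 0.29 for the combination against CSA, the highest of the list). FASTK (0.36 ± 0.38) was the highest against VEN, POLG, the mitochondrial DNA polymerase (-0.27 ± 0.27), the lowest against CSA, and HSD17B10 (-0.55 ± 0.30) the lowest for VEN against CSA. Without VEN 2 FASTK became -0.08 ± 0.22 and HSD17B10 -0.22 ± 0.21.

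Of 8 nuclear regulators of respiratory genes, 7 were tested and PPARGC1A was too low to be. Their medians were -0.22 against VEN, -0.05 against CSA and 0.30 for VEN against CSA, and the first and last were -0.02 and 0.01 without VEN 2. GABPA, the DNA-binding subunit of GABP, was at 53.5 and 79.1 in VEN 1 and 2, 42.3 and 50.3 in CSA 1 and 2, and 49.0 and 50.1 in combination 1 and 2, the lowest of the list against VEN (-0.42 ± 0.23) and the highest for VEN against CSA (0.52 ± 0.23). ESRRA, an orphan nuclear receptor, was at 29.1 and 18.7, 51.4 and 29.7, and 35.0 and 22.1 in the same order, the highest against VEN (0.25 ± 0.39) and the lowest in the other comparisons (-0.50 ± 0.39 against CSA and -0.76 ± 0.39 for VEN against CSA). GABPB1 was the highest against CSA (0.13 ± 0.30). Without VEN 2 GABPA became -0.11 ± 0.14 and 0.20 ± 0.14, and ESRRA -0.02 ± 0.44 against VEN and -0.48 ± 0.45 for VEN against CSA.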

How the data were processed

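RNA was extracted with Trizol, and the KAPA RNA HyperPrep kit was used for the libraries, per the labels' protocols. The submitters' processing notes name STAR, RSEM, DESeq2 and the build hg38, with no versions or roles. The deposited table holds whole-number counts per Ensembl gene. The strand setting and the handling of shared reads are not given in the sources used here. Counts from 1 to 20 were even in 64.8% to 66.7% of cases per library, and those from 100 upwards in 49.0% to 51.0%, so a low count may not always be 1 independent fragment. DESeq2's adjusted p was left as NA where it gave none. The table has 2 further columns that match no sample analysed here, and they were not used. A treatment label that names gavage was set aside, since the cells were cultured.

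Gene symbols were found for 20148 of 20263 identifiers. After filterByExpr, library sizes were adjusted by the trimmed-mean method (TMM), and edgeR 4.0.16 (R 4.3.3) gave robust quasi-likelihood tests from 1 model of group over all 6 libraries (residual degrees of freedom: 3), with Benjamini-Hochberg adjustment over 12690 genes and a threshold of 0.05. limma 3.58.1 and DESeq2 1.42.0 served as alternatives. The code was tested on simulated data. Gene and overlap coordinates come from GENCODE release 29 on GRCh38. Members, lists and tests were chosen with earlier results of these data known. The rule for naming nuclear-encoded genes took those called in either fit, of which there were 0, and the highest and lowest member of each complex in each comparison. Outside this rule, CYC1, NDUFA2, NDUFV2, COX5B and members without a matched promoter are named for the point made beside each. Of the other lists, highest and lowest members are named in the comparisons described, and 1 such gene is not reported here. A fit with the replicate number as a block was one alternative.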

Additional observations from a re-analysis of the deposited data

How the results depend on the processing

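Same-numbered libraries deviated together across the 12690 genes tested, which are not independent replicates (Pearson r of 0.192 for VEN with CSA, 0.253 for VEN with the combination and 0.164 for CSA with the combination), but with 2 numbers and no label behind them they share only a number. The replicate block changed no call of a member. With the block, the mitochondrial medians were -1.22, 0.50 and 1.61 and the nuclear-encoded medians 0.08, -0.20 and -0.22 for the combination against VEN, the combination against CSA and VEN against CSA. Library size alone, without TMM, put the median of all genes at 0.26, -0.04 and -0.31, and the nuclear-encoded median at 0.26 against VEN and -0.47 for VEN against CSA. The mitochondrial median against VEN was then -1.10, and with limma-voom it was -0.96, and 1.43 for VEN against CSA. DESeq2 called 1 member in each of these last 2 comparisons, among 311 and 63 genes called in all.

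Leaving out 1 library at a time, the combination against VEN had 0 to 21 members called, a nuclear-encoded median of -0.17 to 0.30, a mitochondrial median of -2.54 to 0.91 and a log2 ratio of the genomes of -2.82 to 0.70. VEN against CSA had 0 to 26 members called, -0.39 to -0.0282, -0.17 to 3.22 and -0.10 to 3.42. The combination against CSA had 0 called throughout, -0.37 to -0.07, 0.02 to 1.00 and -0.04 to 1.24, with both low ends of the last pair from the fit without combination 2. Of these fits only the one without VEN 1 called members.

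Some alternatives chosen after seeing the data kept all libraries and removed the GC trend, without or with the replicate block. No member was called in either. Without the block, the nuclear-encoded medians were 0.0027, -0.19 and -0.24 for the combination against VEN, the combination against CSA and VEN against CSA. Of all genes, 38, 0 and 0 were called in that order, and 36, 1 and 0 with the block. The main fit called 0 in each. The other such alternatives left VEN 2 out together with 1 other change. With scaling that ignores mitochondrial genes, the combination against VEN gave -0.17 (nuclear-encoded) and 0.91 (mitochondrial), and VEN against CSA -0.17 (mitochondrial). With the GC trend removed these were -0.19, 0.83 and -0.16, and the nuclear-encoded median of VEN against CSA was 0.0066. With the replicate block the mitochondrial medians were 0.45 and 0.18. The cause was not tested. With 2 libraries a group, and the wide standard errors of mitochondrial members, differences of the size seen could not be told from the spread. Over all alternatives, 174 values of these summaries stayed within 1 SD of replicates or kept their count, and 24 moved. The gap between VEN 1 and VEN 2 entered that SD, which was 1.42 for mitochondrial medians and 1.55 for the log2 ratio of the genomes. Even the fall of the mitochondrial median against CSA from 0.62 to 0.02 without combination 2 counted as staying. The split therefore says little about how stable the mitochondrial values were.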

Other observations

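Genes that build the complexes and feed them electrons gave no call either in the 3 comparisons (edgeR's quasi-likelihood test, adjusted p under 0.05). Of 48 assembly factors, all tested, 30 were higher in the combination than in VEN (median 0.09) and 28 higher than in CSA (median 0.05). In VEN against CSA 20 were higher (median -0.03). The shares of all genes that were lower, not higher, were 50.9%, 50.3% and 50.2% in that order. At an unadjusted p under 0.05 there was 1 assembly factor, 0 and 0. Of all genes, 5.33%, 1.95% and 2.34% were higher and 5.48%, 1.69% and 2.46% lower at that threshold. The 1 assembly factor was TTC19, of complex III, which was higher and is named after its values were seen to complete the count. It was at 48.5 and 59.5 scaled CPM in VEN 1 and 2, 55.7 and 60.9 in CSA 1 and 2, and 73.96 and 75.8 in combination 1 and 2, so both combination libraries were above the other 4 (0.47 ± 0.17 against VEN, adjusted p = 0.420 in edgeR; 0.63 ± 0.12 without VEN 2). SURF1, an assembly factor of complex IV, was the highest against VEN (0.57 ± 0.47) and the lowest for VEN against CSA (-0.65 ± 0.47). It was at 17.8 and 6.95 scaled CPM in VEN 1 and 2, 22.6 and 16.6 in CSA 1 and 2, and 21.5 and 15.6 in combination 1 and 2, so replicate 2 was the lower in each pair, and without VEN 2 the 2 values were 0.06 ± 0.29 and -0.14 ± 0.29. NDUFAF2, an assembly factor of complex I, was the lowest against VEN (-0.80 ± 0.46) and the highest for VEN against CSA (0.85 ± 0.46). It was at 14.2 and 37.2, 12.3 and 16.1, and 12.9 and 16.5 in the same order, with replicate 2 the higher in each pair, and without VEN 2 the value against VEN was 0.05 ± 0.25 and that of VEN against CSA was 5.9e-05 ± 0.25. SDHAF4, which helps to mature SDHA, had the highest value against CSA (0.46 ± 0.21), at 11.3 and 10.7 in CSA 1 and 2 and 13.5 and 16.8 in combination 1 and 2, while SDHA itself was at -0.32 ± 0.19. SCO2, a copper chaperone of complex IV, had the lowest (-0.47 ± 0.37).

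Of 14 enzymes of the citric acid cycle, 9 were lower in the combination than in VEN, 8 lower than in CSA and 7 lower in VEN than in CSA. Their medians were -0.02, -0.02 and 0.02, and 50.9%, 50.3% and 50.2% of all genes were lower in that order. DLST, the E2 subunit of the oxoglutarate dehydrogenase complex, was at 122 and 85.9 scaled CPM in VEN 1 and 2, 132 and 107 in CSA 1 and 2, and 77.9 and 95.2 in combination 1 and 2, and was the lowest of the list against CSA (-0.47 ± 0.24) and against VEN (-0.27 ± 0.24, and -0.50 ± 0.19 without VEN 2). CS, citrate synthase, was at 129 in CSA 1 and between 357 and 422 in the other 5 libraries, and its log2 fold change against CSA, the highest of the list, was 0.57 ± 0.48 with that 1 library low.

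Of 7 tissue-specific isoforms of subunits, 2 passed the filter on low counts. NDUFA4L2, a paralog of NDUFA4 known as a hypoxia-induced gene, was at 2.07 and 1.64 scaled CPM in VEN 1 and 2, 4.07 and 4.74 in CSA 1 and 2, and 2.28 and 6.22 in combination 1 and 2. Both VEN libraries were below the other 4, and the log2 fold changes were 1.18 ± 0.50 for the combination against VEN (adjusted p = 0.476 in edgeR) and -1.24 ± 0.50 for VEN against CSA (adjusted p = 0.633 in edgeR). COX6B2 was below 1 CPM in each library.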
